A study of Mus musculus with 2 samples.

Results

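The 8 genes described here belong to cholesterol synthesis and its feedback control. They were taken by gene symbol from the annotation of the array's probes, with every probe of each gene, and they are 8 of 16593 genes measured. Hmgcs1, Idi1, Fdps, Sqle, Msmo1, Sc5d and Dhcr7 encode enzymes of the synthesis route, and Insig1 encodes a sterol sensor. None of the 8 is a gene of cholesterol uptake, which is described below from a separate list. The 8 genes had 12 probes, of which 9 were detected on both arrays (detection p below 0.01 against the negative control beads of the same array) and 3, all of Insig1, on neither.

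RNA came from mouse keratinocytes carrying integrin alpha6 and lacking CD34. Controls (CON) had floxed MED1 alleles (MED1 fl/fl, C57BL6) and no Cre, and knockouts (Med1cKO) had MED1 fl/fl with a Cre driven by Krt14, which directs deletion to keratinocytes that use this promoter and to their descendants. Each genotype was 1 pool of cells from 3 mice on 1 array. No age of the mice is stated in the labels, and other label fields speak of RNA from whole skin of single mice instead of sorted cells. With 1 array a genotype there is no replicate error, so no p-value is given and every difference below is between 2 pools.

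Cholesterol is built from acetyl-CoA through the mevalonate pathway to farnesyl diphosphate, then through squalene and a series of sterols. When sterols in the endoplasmic reticulum are low, SCAP carries the SREBP transcription factors to the Golgi for cleavage, and the released factor switches on nearly all enzymes of the route. INSIG proteins hold SCAP back when sterols are plentiful. In the epidermis, cholesterol is a main lipid of the water barrier together with ceramides and free fatty acids.

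The marker RNAs matched the label of the cells in part. The basal keratinocyte markers Krt14, Krt5, Itga6, Itgb4, Col17a1 and Trp63 were all detected on both arrays, with log2 ratios (Med1cKO minus CON) of -0.48 to 0.09. RNA of Cd34, whose carriers the sort was meant to remove, was also detected, reading 321 in CON and 279 in Med1cKO. This RNA reading is no measure of the CD34 protein on the cells. The brightest Med1 probe read 794 in CON and 452 in Med1cKO, 2.0-fold lower, or 1.67-fold without background correction. Other detected Med1 probes had log2 ratios of -0.82 and, not detected in Med1cKO, -1.51. The labels do not state the deleted exons, so these probes are no check of the deletion. Median intensities were 197.6 (CON) and 191.17 (Med1cKO) over 25697 probes, and 7955 genes were detected on at least 1 array. Levels below are log2 intensities after background correction and quantile normalization. Levels of different probes depend on the probe, so genes are not ranked by level.

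The promoters of the genes that differed most, Dhcr7, Msmo1 and Insig1, are shown with that of Hmgcs1, which differed little, because SREBP factors act through promoters of this route together with NF-Y and Sp1. Each line is the 200 bases before an annotated transcript start, 5′ to 3′ on the strand of the gene, from RefSeq on GRCm38.p6. Capitals mark matches on either strand to the sterol regulatory element core TCACNCCAC, the NF-Y box CCAAT, the Sp1 box GGGCGG or the E-box CACGTG, and no 2 matches overlap. The Dhcr7 stretch lies at chr7:143830014-143830213 (plus strand) and is the third of 3 starts in the table, shown because it is the start with NF-Y boxes. The Msmo1 stretch is chr8:64733579-64733778 (minus strand), that of Insig1 chr5:28071212-28071411 (plus strand) and that of Hmgcs1 chr13:119690151-119690350 (plus strand).
Dhcr7: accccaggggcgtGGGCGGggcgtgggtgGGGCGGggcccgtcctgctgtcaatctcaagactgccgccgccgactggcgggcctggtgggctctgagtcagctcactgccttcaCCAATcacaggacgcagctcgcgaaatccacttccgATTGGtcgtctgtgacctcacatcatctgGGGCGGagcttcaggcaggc
Msmo1: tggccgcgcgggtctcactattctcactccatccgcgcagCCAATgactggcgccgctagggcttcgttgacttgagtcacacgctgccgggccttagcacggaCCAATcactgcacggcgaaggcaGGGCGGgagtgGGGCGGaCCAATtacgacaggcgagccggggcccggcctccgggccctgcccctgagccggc
Insig1: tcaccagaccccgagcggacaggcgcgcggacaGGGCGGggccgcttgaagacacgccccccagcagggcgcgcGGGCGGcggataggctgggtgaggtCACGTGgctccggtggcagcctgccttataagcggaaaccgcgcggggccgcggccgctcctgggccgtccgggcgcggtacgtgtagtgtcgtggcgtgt
Hmgcs1: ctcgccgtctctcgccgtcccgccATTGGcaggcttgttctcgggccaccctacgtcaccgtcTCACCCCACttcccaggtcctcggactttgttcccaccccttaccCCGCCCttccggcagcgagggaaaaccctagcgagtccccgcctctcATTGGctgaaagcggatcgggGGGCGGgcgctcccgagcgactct

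The lines show NF-Y and Sp1 boxes before Dhcr7, Msmo1 and Hmgcs1, and Sp1 boxes with an E-box before Insig1. The Dhcr7 line was chosen for its NF-Y boxes, so their presence there is no finding. Which Dhcr7 start these cells use was not tested. The sterol regulatory element core is present in the Hmgcs1 line alone. Over the whole window of 300 bases (250 before to 50 after the start), 6 of the 8 genes have an entry in the promoter table: Dhcr7, Msmo1, Insig1, Sc5d, Hmgcs1 and Idi1. The NF-Y box was found in all 6, against 41.1% of 27025 genes and 37.4% of 32851 windows, and the Sp1 box in all 6, against 38.2% of genes and 35.7% of windows. The E-box was found in 3 of 6 (Dhcr7, Insig1 and Sc5d), against 8.09% of genes and 7.15% of windows. The sterol regulatory element core was found in 1 of 6, against 1.44% of genes and 1.24% of windows. The other synthesis enzymes gave 11 of 13 for the NF-Y box, 10 of 13 for the Sp1 box, 1 of 13 for the E-box and 0 of 13 for the sterol core. Dhcr7 differs between its starts: the first holds 1 Sp1 box, the second 1 E-box, and the third 2 NF-Y and 3 Sp1 boxes. A match describes the letters and does not show that a factor binds there. The search took exact letters only, so a missing match does not show that no factor binds.

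**Figure D1:**
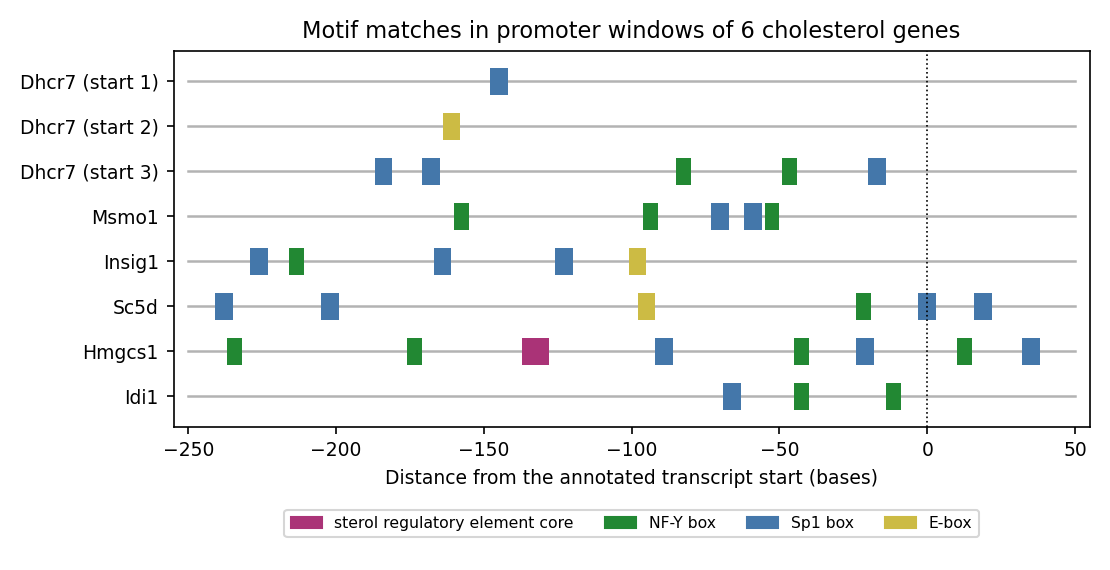
Positions of motif matches in the promoter windows of 6 cholesterol genes; each horizontal line is a window from 250 bases before to 50 bases after an annotated transcript start (dotted line), and coloured boxes are matches to the sterol regulatory element core, NF-Y box, Sp1 box and E-box. NF-Y and Sp1 boxes occur in every gene, though not at every Dhcr7 start, and the sterol core only in Hmgcs1.

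Of the 8 genes, 6 were higher and 2 lower in the Med1cKO pool, with a median log2 ratio of 0.35. Among all 7955 detected genes 45.6% were above 0 and the median was -0.04. The genes at least 1.5-fold higher were Dhcr7, Msmo1 and Insig1, so 3 of 8 against a background of 9.25% of detected genes. None of the 8 was at least 1.5-fold lower (background 8.28%), none was at least 2-fold higher (background 3.95%) and none at least 2-fold lower (background 1.81%). The 8 genes were chosen with earlier results of these data known, so these shares are a description and no test against the background. In pooled cells, a change in RNA per cell and a change in the share of a cell type cannot be told apart.

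**Figure D2:**
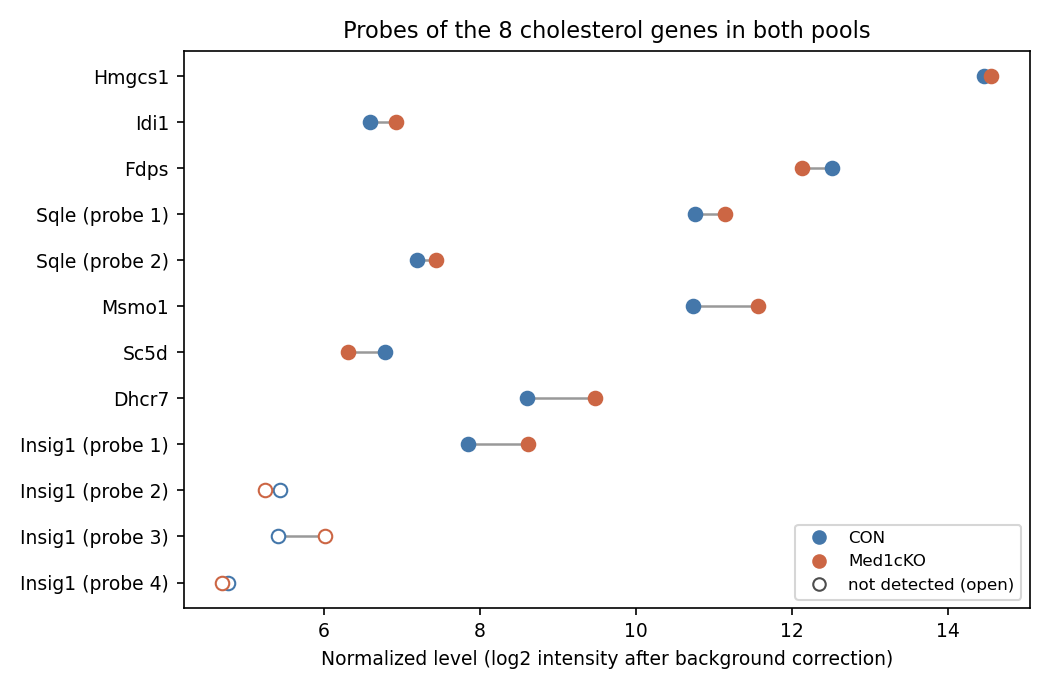
Normalized level (log2 intensity after background correction) of each of the 12 probes in the CON pool (blue) and the Med1cKO pool (orange), in the order of the synthesis route with Insig1 last; 1 array per pool, and open circles are values not detected. The widest gaps among detected probes are those of Dhcr7, Msmo1 and the first Insig1 probe, and Fdps and Sc5d are the detected probes with the control on the right.

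The mevalonate steps are represented by Hmgcs1, Idi1 and Fdps, none of them 1.5-fold different. Hmgcs1, the synthase that makes HMG-CoA (probe ILMN_2654952), read 23169.6 in the CON pool and 24177 in the Med1cKO pool. Its log2 level was 14.46 and 14.55, a difference of 0.10 that is 0.41 times the robust SD (0.23) of the ratios of similarly bright genes. This robust SD is a scaled median absolute deviation across genes, not a replicate error. Hmgcs1 ranked 2899 of 7955 from the highest ratio, in the broad middle of all genes.

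Idi1, the isomerase that turns isopentenyl diphosphate into dimethylallyl diphosphate (probe ILMN_2590923), was near the limit of detection, at 250 in CON and 267 in Med1cKO. Its log2 level was 6.59 in CON and 6.92 in Med1cKO, 1.26-fold higher, or 1.10-fold without background correction. The ratio of 0.33 was 0.60 times the robust SD of similarly dim genes (0.55). Fdps, which makes farnesyl diphosphate, the branch point to sterols and to protein prenylation (probe ILMN_1225730), went the other way. Its intensity was 6034 in CON and 4504 in Med1cKO, and its log2 level 12.51 and 12.12, 1.31-fold lower in the Med1cKO pool. The ratio of -0.39 was 1.69 times the robust SD of similar genes, and Fdps ranked 6471 of 7955.

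Sqle, the epoxidase that commits squalene to sterols and a rate-limiting step of this part of the route, had its brighter probe (ILMN_2737163) at 1937 in CON and 2333 in Med1cKO, 1.30-fold higher. Its other probe read 302 and 318, with a log2 ratio of 0.24 against 0.38 for the brighter one. Both Sqle probes therefore lay above 0 and below 1.5-fold. The 2 probes share the same RNA and arrays and are no replicates.

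Msmo1, the methylsterol monooxygenase that oxidizes methyl groups of sterol intermediates for removal (probe ILMN_2823778), read 1896 in the CON pool and 3104 in the Med1cKO pool. The log2 levels were 10.73 and 11.56, 1.79-fold higher in the Med1cKO pool. The ratio of 0.84 was 2.66 times the robust SD of similarly bright genes (0.32), the highest multiple of the 8, and ranked 595 of 7955. Msmo1 is bright enough that background correction mattered little, with 1.72-fold without it and 1.75-fold in the authors' normalized values.

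The last steps are catalysed by Sc5d and Dhcr7, and their probes differed in opposite directions. Sc5d, the desaturase that makes 7-dehydrocholesterol (probe ILMN_1225039), was dim, at 264 in CON and 225 in Med1cKO. Its detection p was 0.0038 and 0.0075, and its log2 level 6.78 and 6.31, 1.39-fold lower in Med1cKO or 1.13-fold without background correction. Genes this dim had a robust SD of 0.97, so the Sc5d ratio of -0.47 was 0.49 times that spread. Dhcr7, the reductase that turns 7-dehydrocholesterol into cholesterol (probe ILMN_2660471), had the highest ratio of the 8. Its intensity was 553 in CON and 837 in Med1cKO and its log2 level 8.61 and 9.47, 1.81-fold higher, or 1.59-fold without background correction. The ratio of 0.86 was 2.15 times the robust SD of similar genes (0.40) and ranked 582 of 7955.

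Insig1, the sensor that retains SCAP and is itself a target of SREBP, had 1 detected probe (ILMN_2895388), at 386 in CON and 531 in Med1cKO. Its log2 level was 7.85 and 8.62, 1.71-fold higher, and the ratio of 0.77 was 1.69 times the robust SD of similar genes (0.46) with rank 664 of 7955. Without background correction the fold was 1.43, below the 1.5-fold mark. The other Insig1 probes read 145 to 211 on both arrays and passed detection on neither, so their log2 ratios of 0.61, -0.19 and -0.07 rest on background. The result for Insig1 therefore stands on a single probe.

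**Figure D3:**
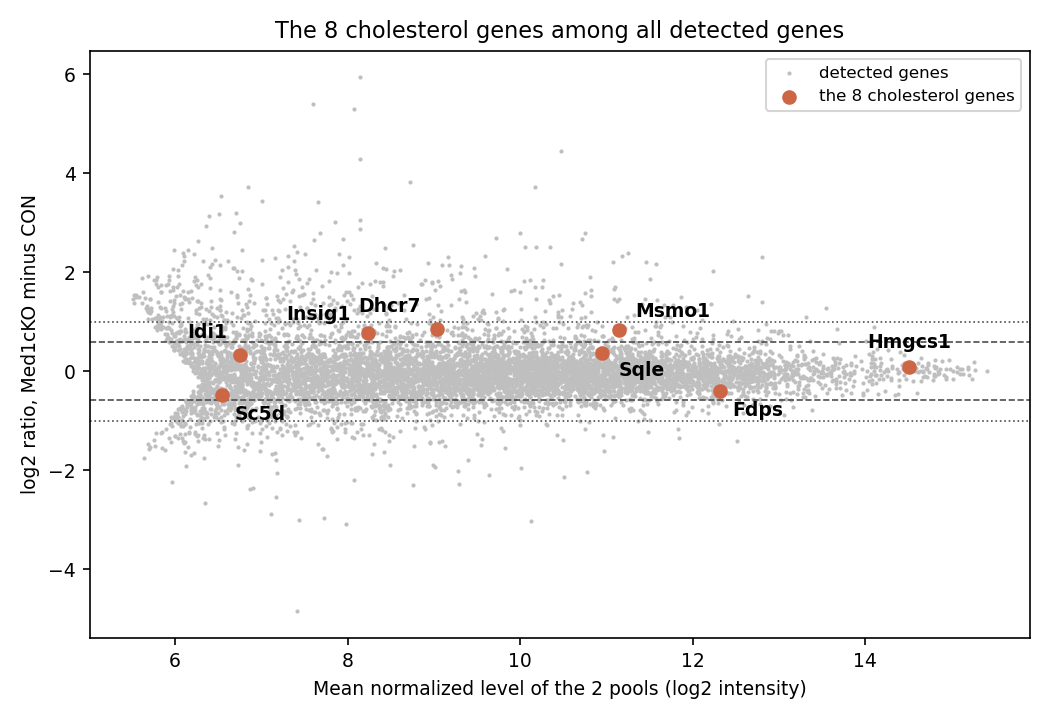
Log2 ratio (Med1cKO minus CON) against the mean normalized level of both pools for 7955 detected genes (grey, 1 array per pool), with the 8 cholesterol genes in orange; dashed lines mark 1.5-fold and dotted lines 2-fold. Dhcr7, Msmo1 and Insig1 lie between the dashed and dotted lines, and the other 5 lie within 1.5-fold.

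Of the 8 genes, 6 had a single probe, so no other probe can be set beside their values. Processing moved the dim genes most. Over 10 alternative settings Msmo1 stayed at log2 ratios of 0.79 to 0.86, Dhcr7 at 0.64 to 0.92, Insig1 at 0.52 to 0.85 and Sqle at 0.31 to 0.39. Hmgcs1 ranged from 0.07 to 0.16, Idi1 from 0.14 to 0.43, Fdps from -0.40 to -0.33 and Sc5d from -0.57 to -0.18. No member changed sign in any of these settings. All 8 genes were detected on both arrays, so settings of the detection filter could not alter their ratios. Probe choice could alter that of Sqle alone, the only member with more than 1 detected probe.

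**Figure D4:**
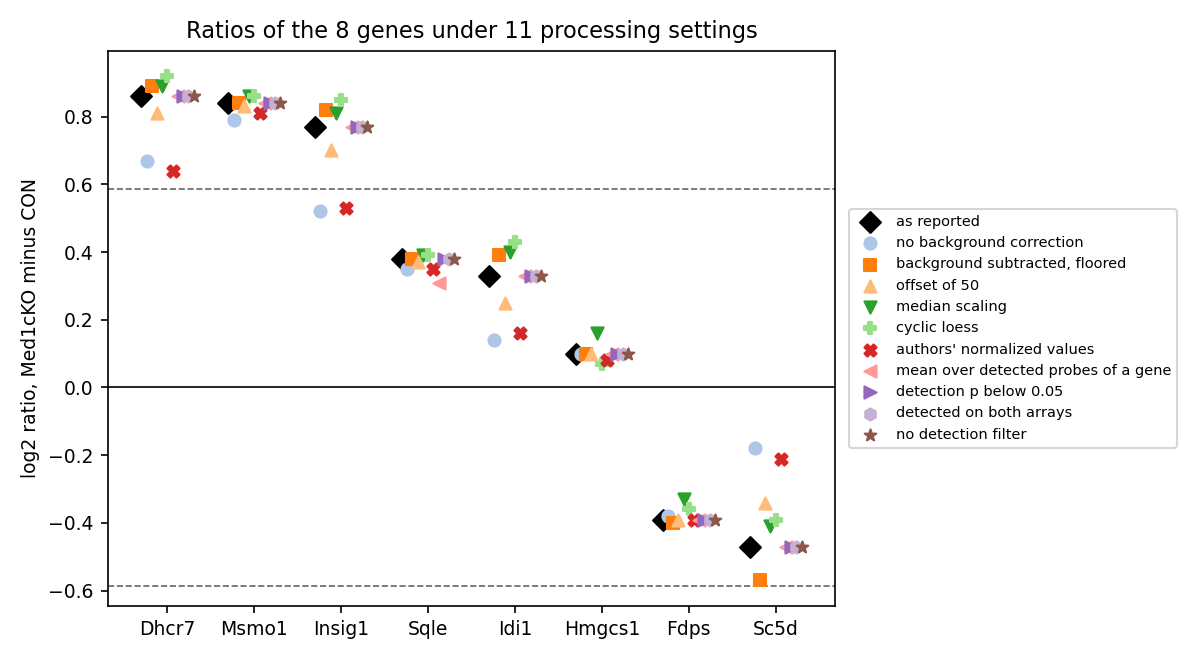
Log2 ratio (Med1cKO minus CON) of each of the 8 genes as reported (black diamonds) and under 10 alternative settings of background correction, normalization, probe choice and detection filter; dashed lines mark 1.5-fold. Dhcr7 and Msmo1 stay above 1.5-fold in every setting, while Insig1 falls to 0.52 and 0.53 without background correction and with the authors' normalized values. Settings of the detection filter repeat the reported value of each gene by design, and probe choice moves Sqle alone.

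The other synthesis enzymes differed less than Dhcr7 and Msmo1. Of 16 listed enzymes that are not among the 8, 11 were measured and 8 detected. Of these 8, 6 were above 0 by their brightest probes, and the median log2 ratio was 0.14. None was 1.5-fold different in either direction (9.25% and 8.28% of all detected genes). Nsdhl is among the 6 by a log2 ratio of 0.03, while its other detected probes had -0.24, -0.12 and -0.30. Mvd, the mevalonate diphosphate decarboxylase, had 296 in CON and 332 in Med1cKO (log2 ratio 0.41). Ebp, a sterol isomerase, had 1896 and 2203 (log2 ratio 0.32), and Lss, which closes the sterol rings, 519 and 541 (0.18). Cyp51, the sterol demethylase that acts on lanosterol, had 778 in CON and 819 in Med1cKO (0.17). Lbr, a nuclear envelope protein that is also a sterol reductase, was lower, at 4606 and 3632 (-0.30). The whole route, members included, had 15 detected enzymes with 11 above 0, Nsdhl again among them (73.3%, against 45.6% of all detected genes). Those at least 1.5-fold higher were Dhcr7 and Msmo1, 2 of 15 against 9.25% of all detected genes.

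Among genes of sterol sensing and SREBP processing, 7 were detected. Of these, 2 passed 1.5-fold upward and 1 passed it downward (9.25% and 8.28% of all detected genes). The median log2 ratio was 0.13, or 0.06 over the 6 detected on both arrays. Insig2, the second INSIG gene, had 1450 in CON and 2114 in Med1cKO, 1.59-fold higher by its brightest probe. Another detected Insig2 probe, at 1007 and 1076, gave a log2 ratio of 0.19 against 0.67, so the probes of this gene disagree in size. Srebf2, the factor that mainly drives cholesterol synthesis, had 1301 and 1346 (log2 ratio 0.13). Srebf1, the family member that mainly drives fatty acid synthesis, had 444 in CON and 327 in Med1cKO by the brighter of its 2 probes. That was 1.56-fold lower, or 1.31-fold without background correction. Scap had 1476 and 1205 (log2 ratio -0.25). Rnf139, a ubiquitin ligase of the endoplasmic reticulum, passed detection on the Med1cKO array alone (193 and 229), so close to background that no fold is stated.

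In the list of uptake and intracellular transport, 7 of 12 genes were measured and 4 detected, with a median log2 ratio of 0.29. The gene at least 1.5-fold higher was Stard4, a cytosolic sterol carrier that is a known SREBP target, at 520 in CON and 757 in Med1cKO (1.74-fold, or 1.52-fold without background correction). That is 1 of 4 detected genes, and none was 1.5-fold lower, against 9.25% and 8.28% of all detected genes. Npc2, which hands cholesterol out of the lysosome, had 949 and 1122 (log2 ratio 0.37). Vldlr, a lipoprotein receptor, had 1475 and 1608 by its brightest probe (log2 ratio 0.22), and its other detected probes had 0.25 and 0.41. Stard3, a late endosomal sterol carrier, had 312 and 284 (-0.18). Scarb1, a receptor for high density lipoprotein, was not detected on either array. The lipoprotein receptor detected here thus differed by less than 1.5-fold by each of its probes.

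Genes of efflux, storage and conversion held values in both directions. Of 7 detected genes, 2 passed 1.5-fold upward and 1 passed it downward, against 9.25% and 8.28% of all detected genes. The median log2 ratio was 0.42, or 0.30 over the 6 detected on both arrays. Sult2b1, which sulfates cholesterol in differentiating epidermis, had 943 in CON and 1559 in Med1cKO, 1.88-fold higher, and its other probes had log2 ratios of 0.70 and, not detected in CON, 0.48. Nceh1, a cholesterol ester hydrolase, had 297 and 374, 1.62-fold higher, or 1.30-fold without background correction. Abcg1, a sterol exporter, had 365 in CON and 266 in Med1cKO, 1.74-fold lower, or 1.33-fold without background correction. Nr1h3, which encodes the oxysterol receptor LXR alpha, likewise passed detection on the Med1cKO array alone (193 and 227).

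Fatty acid synthesis genes, the other main branch under SREBP control, had a median log2 ratio of -0.02, against -0.04 for all detected genes and 0.35 for the 8 genes. Of 9 detected, 4 were above 0 and 5 below (44.4% and 55.6%), close to the shares of all detected genes (45.6% and 54.3%). Elovl6, an elongase of long-chain fatty acids, had 1239 in CON and 2746 in Med1cKO, 2.53-fold higher. Scd2, a stearoyl-CoA desaturase, had 344 and 214 and was not detected in Med1cKO, at least 2.58-fold lower against the lowest detected probe there, or 1.56-fold lower after quantile normalization without background correction. Its relative Scd1 had 4260 and 4162 (log2 ratio 0.01). The difference between the lists was not tested, since there is 1 array a group.

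**Figure D5:**
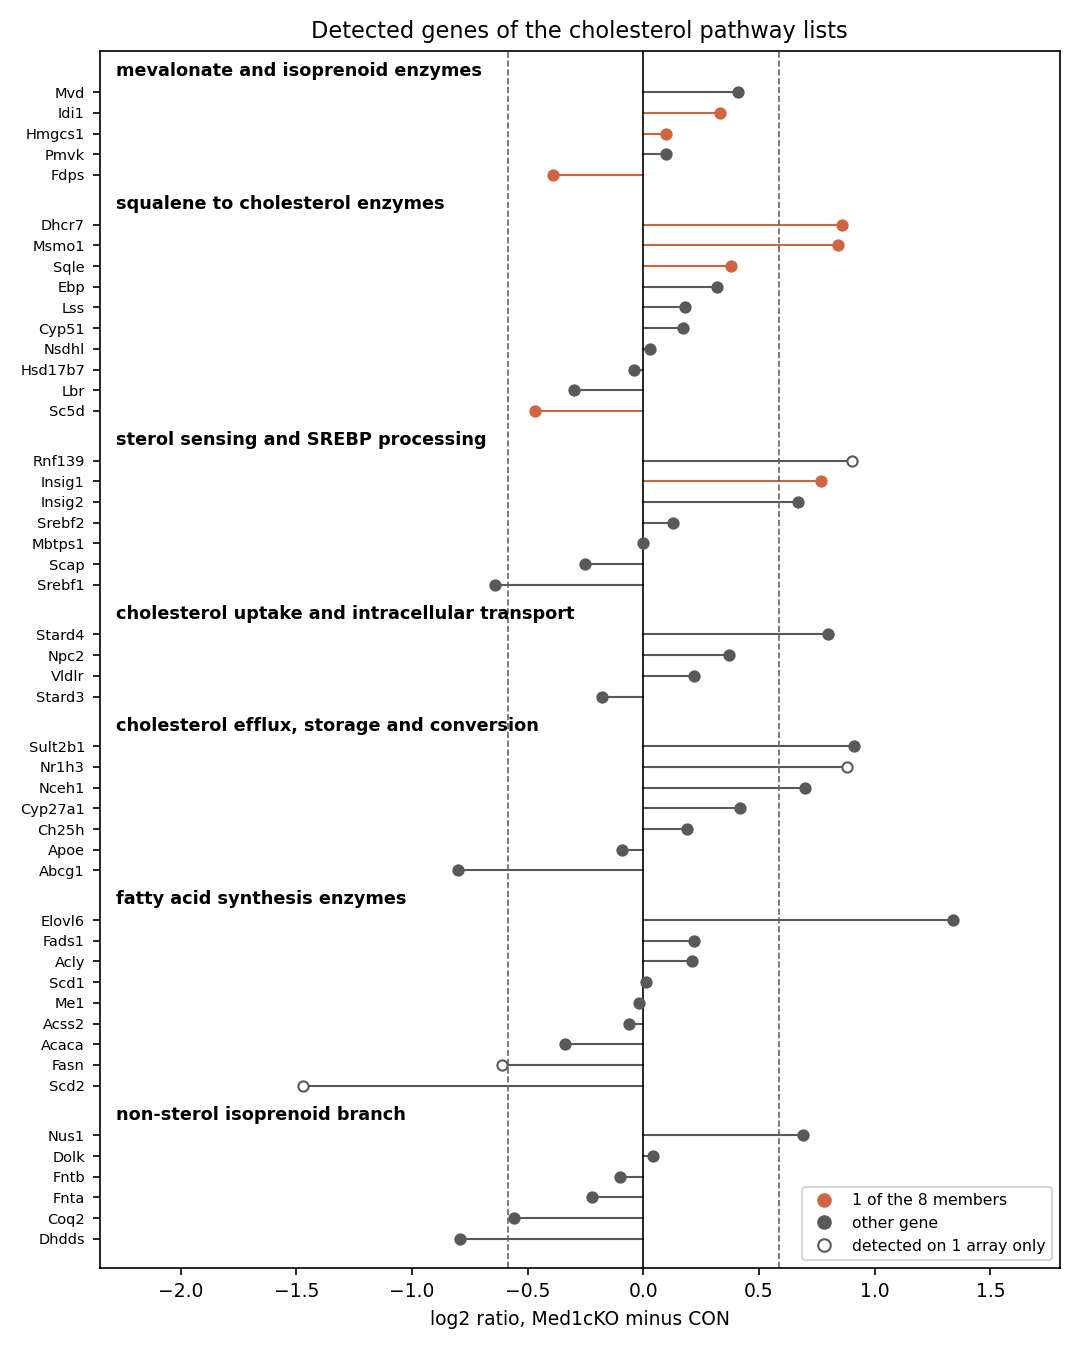
Log2 ratio (Med1cKO minus CON, 1 array per pool) of every detected gene of 7 pathway lists, with the 8 cholesterol genes in orange, other genes in grey and open circles for genes detected on 1 array only; dashed lines mark 1.5-fold. Dhcr7 and Msmo1 lead the synthesis lists, and Elovl6 has the highest ratio plotted, 1.34; the open circles, Scd2 among them, rest on a value at background on 1 array and are measured differences, not bounds.

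Several markers of other cell types were higher in the same pool as Dhcr7, Msmo1 and Insig1. Their folds, including those written as at least, hold on the background-corrected scale and are smaller without the correction. Each fold is that of the brightest probe of the gene, also where a marker has further probes. Folds written as at least belong to markers detected in Med1cKO alone, which by that filter could not count as lower. Of all 7955 detected genes, 528 were detected in Med1cKO alone and 245 in CON alone. At least 1.5-fold higher were 9.25% of all detected genes, and at least 2-fold higher 3.95%. Of 8 sebocyte markers measured, 4 were detected. Mgst1 and Plin2 were detected on both arrays and were 6.89-fold and 2.38-fold higher. Cidea (at least 5.75-fold) and Pparg (at least 1.99-fold) were detected in Med1cKO only. With no background correction Mgst1 was 5.25-fold, Cidea 2.80-fold, Plin2 1.55-fold and Pparg 1.89-fold higher. The list's summed intensity above background was 549 in CON and 3500.4 in Med1cKO, while Awat2, Elovl3, Far2 and Scd3 were detected on neither array. Of 6 fibroblast markers, 4 were detected, in Med1cKO only, with Dcn at least 26.0-fold and Col1a1 at least 3.74-fold higher (13.3-fold and 2.70-fold without background correction), and the sum was 16.8 in CON and 2676 in Med1cKO. Of 5 immune markers measured, 4 were detected, with Cd3e at least 3.49-fold, Cd207 2.87-fold and Cd74 1.72-fold higher (1.90-fold, 1.68-fold and 1.61-fold without background correction), Ptprc detected on neither, and sums of 951.5 and 1919.

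Of 5 adipocyte markers, Lpl alone was detected, at least 7.78-fold higher on the corrected scale and 3.84-fold on the uncorrected one, and Adipoq, Fabp4, Lep and Plin1 were detected on neither array (sums of 46.3 and 640.1). The globins Hba-a1 (6.46-fold, or 4.76-fold without background correction) and Hbb-bt (at least 1.71-fold, or 1.63-fold) were the detected genes of 3 erythroid markers, with sums of 340.1 and 2206. Of 4 melanocyte markers, Dct was detected, in Med1cKO only (sums of 7.0 and 122.4), and none of 4 endothelial markers was (sums of 61.3 and 101.1). Of 5 bulge markers, 4 were detected, with Sox9 3.48-fold higher (2.35-fold without background correction), Lgr5 detected in Med1cKO alone, and Krt15 at a log2 ratio of -0.43, and sums of 29102 and 21852. All 5 suprabasal markers measured were detected, with Tgm1 2.72-fold higher (1.82-fold without background correction) and the others within 1.5-fold (sums of 51519 and 52286), and the 6 basal markers summed to 132064 and 118042. Each sum is set mostly by the brightest probes of its list and is no measure of cell share. Krt15, at 28921 in CON and 21147 in Med1cKO, makes up most of the bulge sums. The part of these cell types in the cholesterol gene values was not tested.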

How the data were processed

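The deposited intensity values of 2 Illumina bead arrays (CON and Med1cKO) are non-normalized per the file headers, and their values show a linear scale that still holds the background. Each has a deposited detection p-value. The submitters' processing notes name GenomeStudio 2011.1. A table of intensities normalized by the authors (by a method the labels do not name; medians 198.42 and 198.74) was an alternative.

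Intensities were corrected, quantile-normalized and put on a log2 scale with neqc of limma 3.58.1 (R 4.3.3, offset 16, background from the detection p-values: mean 168 and SD 21.85 in CON, 163 and 17.03 in Med1cKO). The step was tested on simulated data in which only probes well above background were changed, by at least 2-fold. That test set no changes in genes as dim as Idi1, Sc5d and Insig1, and none below 2-fold. Python 3.11.15, pandas 2.3.3, numpy 2.4.6 and matplotlib 3.10.9 did the rest. Of 25697 probes, 23978 had 1 symbol, 1719 had none and 0 had several; an Entrez match to RefSeq (GRCm38.p6) covered 23962 and changed 0 symbols. A gene was represented by its brightest probe. A gene detected on 1 array was counted by its bound, the difference from the lowest detected level of the other array (log2 6.41 in CON, 6.20 in Med1cKO). Named genes were the 8 members, the list genes at least 1.5-fold different and otherwise the 3 largest ratios per list, Med1, Krt14, Krt5, Itga6, Cd34 and markers at least 2-fold different; further genes of these lists were named after their values were seen. The members and lists were chosen with earlier results of these data known. The number of arrays limits the precision, and no test was possible with 1 array a group. Alternatives covered background correction, offset, normalization, the authors' values, probe choice and detection filter.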

Additional observations from a re-analysis of the deposited data

How the results depend on the processing

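Set against their values under the 10 alternatives, list medians and counts stayed close in 180 comparisons (medians within 0.1, counts within 1.5 times) and not in 20. Part of this closeness was fixed in advance, since the detection filter could not alter the values of the 8 genes and probe choice could alter only Sqle. None of the 8 genes changed sign, and Insig1 left the 1.5-fold mark without background correction and with the authors' normalized values. Without background correction the median of the 8 genes was 0.24, that of the efflux list 0.28, and 1 pathway gene was at least 1.5-fold lower. All genes then gave 441 at least 1.5-fold higher and 248 lower, and 155 and 44 at 2-fold. With the authors' values the efflux median was 0.31, 1 pathway gene was at least 1.5-fold lower, and all genes gave 453 and 256 at 1.5-fold and 163 and 46 at 2-fold. Both settings keep the background in the values, which shrinks ratios of dim genes. With no detection filter, which adds genes at background, the uptake median was 0.17 and all genes gave 1195 and 1057 at 1.5-fold and 483 and 254 at 2-fold. Restricted to genes detected on both arrays the efflux median was 0.30. With an offset of 50, 95 genes were at least 2-fold lower. No paired analysis was possible because each group has 1 sample. Idi1 and Sc5d lie near the detection limit, and Insig1 rests on 1 probe.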

Other observations

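Farnesyl diphosphate, the product of Fdps, also feeds branches that make no sterol, and the genes of those branches had values in both directions. Of 6 detected, 4 (66.7%) were below 0, against 54.3% of all detected genes, with a median log2 ratio of -0.16 against -0.04 for all genes. Dhdds and Nus1, which encode both subunits of the enzyme that makes the dolichol chain, had opposite values. Dhdds had 405 in CON and 289 in Med1cKO, 1.72-fold lower (1.35-fold without background correction), and its other probes had log2 ratios of -0.49 and, not detected in Med1cKO, -0.91. Nus1 had 582 and 808, 1.62-fold higher (1.45-fold without background correction). Coq2, a prenyltransferase of coenzyme Q synthesis, had 4067 in CON and 2687 in Med1cKO (log2 ratio -0.56). Fnta, the shared subunit of the protein prenyltransferases, had 6763 and 5831 by its brightest probe (log2 ratio -0.22), another bright probe gave -0.21, and a dim one 0.36.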
